A study of Mus musculus with 6 samples.

Results

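The 32 genes described here are markers of macrophages and of the cells that present antigen on MHC class II, measured by RNA sequencing in whole mouse hearts at postnatal day 14. They are a set of genes given by name and not by a cutoff on their values: 9 general macrophage genes, 6 genes shared with other leukocytes, the 3 chains of complement C1q, 6 markers of resident heart macrophages, 4 markers of monocyte-derived cells and 4 MHC class II genes. All 32 were among the 20121 genes listed in the count tables, and all 32 passed the filter on low counts that left 14877 genes to test.

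The mutant group held 3 Myh6-Cre; TRalphaAMI pups, and the control group 3 TRalphaAMI littermates without Cre, all on a mixed ICR and C57BL/6 background. In TRalphaAMI mice a knocked-in allele makes a dominant negative thyroid hormone receptor alpha once Cre has acted, and Myh6-Cre is active in cardiomyocytes. No group carried Myh6-Cre alone, so an effect of Cre cannot be told apart from one of the altered receptor. The comparison addresses how the RNA of the heart differs once the altered receptor is switched on in its muscle cells.

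Macrophages are the main leukocytes of the healthy heart. Resident ones are seeded before birth, depend on signalling through the CSF1 receptor and clear dying cells and debris, while others arise from blood monocytes that enter through the chemokine receptor CCR2. Some of them carry MHC class II, the molecule that presents peptides to helper T cells, whose genes, with that of the invariant chain, are switched on together by the coactivator CIITA. The 32 genes are read here as RNA of the whole heart: fewer cells of a type and less RNA per cell cannot be told apart.

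The libraries held 46867237, 45944049 and 48359735 counts in mutant hearts, against 43314706, 62095277 and 54354873 in control hearts. Levels are given as CPM, counts scaled to a common library size by TMM, a method that sets the bulk of genes level between libraries. Mitochondrial transcripts took 16.7 to 18.8% of counts in mutant hearts, against 22.3 to 24.8% in control hearts, and without TMM the median of all genes lies 0.28 above 0 on the log2 scale. Thra, the gene of the receptor, had 125, 142 and 143 CPM in mutant hearts, against 66.8, 81.6 and 81.7 CPM in control hearts (log2 fold change 0.83 ± 0.09 (SE), adjusted p = 1.01e-04), but counts per gene do not separate the altered from the normal transcript. Mutant heart 1 had 33 counts of Xist and 4037 of Ddx3y, while the other 5 hearts had 26991 to 42057 of Xist and 0 or 1 of Ddx3y, so that heart differed from the others in sex. Without it, 21 of the 32 markers were called lower and 0 higher, beside 18.9% of all genes lower and 17.6% higher.

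Promoters of 5 of the genes are shown because the genes are close neighbours with like or unlike changes or, for Lyz2, because it was the most abundant per length. Each runs from 250 bases before to 50 after the start site in RefSeq on GRCm38.p6, and capitals mark the motif. AGGAAGT is a purine-rich sequence of the kind bound by ETS factors such as PU.1, the product of Spi1. In all 3 promoters it lies on the other strand and so reads ACTTCCT:
C1qb (chr4:136886151-136886450, minus strand): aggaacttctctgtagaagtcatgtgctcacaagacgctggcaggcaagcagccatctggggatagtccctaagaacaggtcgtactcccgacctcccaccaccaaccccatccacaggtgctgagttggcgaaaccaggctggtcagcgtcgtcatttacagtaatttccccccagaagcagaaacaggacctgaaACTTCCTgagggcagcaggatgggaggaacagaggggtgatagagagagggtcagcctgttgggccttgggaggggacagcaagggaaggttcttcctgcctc
C1qc (chr4:136892865-136893164, minus strand): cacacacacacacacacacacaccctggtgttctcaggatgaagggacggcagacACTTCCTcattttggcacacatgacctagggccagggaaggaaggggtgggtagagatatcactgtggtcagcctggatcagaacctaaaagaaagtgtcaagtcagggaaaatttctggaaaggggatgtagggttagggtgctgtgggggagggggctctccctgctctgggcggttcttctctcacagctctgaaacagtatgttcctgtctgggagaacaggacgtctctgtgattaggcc
Lyz2 (chr10:117282223-117282522, minus strand): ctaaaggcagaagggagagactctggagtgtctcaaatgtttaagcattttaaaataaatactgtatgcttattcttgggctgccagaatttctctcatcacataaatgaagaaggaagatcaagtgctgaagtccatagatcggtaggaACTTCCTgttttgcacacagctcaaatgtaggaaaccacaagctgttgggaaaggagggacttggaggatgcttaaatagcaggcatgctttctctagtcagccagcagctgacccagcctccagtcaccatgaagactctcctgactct
It begins 53, 195 and 100 bases before the start site of C1qb, C1qc and Lyz2. CTGATTGG, the Y box of MHC class II promoters, begins 51 bases before the start of H2-Aa and 62 before that of H2-Eb1:
H2-Aa (chr17:34287774-34288073, minus strand): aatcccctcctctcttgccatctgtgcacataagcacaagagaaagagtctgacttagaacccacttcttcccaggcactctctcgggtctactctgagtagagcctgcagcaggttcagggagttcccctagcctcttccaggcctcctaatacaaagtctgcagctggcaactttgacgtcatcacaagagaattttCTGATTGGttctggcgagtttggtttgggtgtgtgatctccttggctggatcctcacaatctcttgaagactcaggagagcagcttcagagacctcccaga
H2-Eb1 (chr17:34305617-34305916, plus strand): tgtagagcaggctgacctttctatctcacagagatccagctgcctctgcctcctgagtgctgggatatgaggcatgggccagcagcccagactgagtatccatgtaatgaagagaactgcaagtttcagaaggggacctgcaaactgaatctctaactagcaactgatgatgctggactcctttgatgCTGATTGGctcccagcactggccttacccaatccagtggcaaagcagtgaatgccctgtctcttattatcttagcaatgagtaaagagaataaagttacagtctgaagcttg
Both motifs were searched on both strands, and they do not overlap each other. Of the 23 marker genes with a promoter entry, 10 held AGGAAGT (43.5%), against 10.7% of 27025 genes, and these were C1qb, C1qc, Cd53, Ctss, F13a1, Fcgr1, Folr2, Lyz2, Mrc1 and Ptprc. CTGATTGG was held by the 2 genes shown (8.70%), against 4.7% of all genes. Adgre1, C1qa, Cd14, Cd74, Csf1r, H2-Ab1, Lyve1, Spi1 and Tyrobp had no promoter entry and were not searched for either motif. A match describes letters and is not evidence of binding.

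Transcripts of the macrophage genes were less abundant in mutant hearts. The CPM of the 32 genes summed to 194, 186 and 185 in mutant hearts, against 297, 288 and 277 in control hearts. As a share of all counts, with no TMM scaling, they took 0.0209, 0.0206 and 0.0208% in mutant hearts, against 0.0269, 0.0262 and 0.0250% in control hearts. Neither measure overlapped between the groups.

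In edgeR (quasi-likelihood F test, p adjusted by Benjamini-Hochberg over all genes), 24 of the 32 were lower in mutant hearts at an adjusted p under 0.05 and 0 were higher. Of all genes tested, 19.5% were called lower and 18.1% higher, 37.5% in all. At an unadjusted p under 0.05, 25 markers were lower and 0 higher, beside 23.9% of all genes lower and 22.9% higher. DESeq2 called 21 lower and 0 higher, beside 16.9% of its genes lower and 16.1% higher. The median log2 fold change of the 32 was -0.63, against -0.00 over all genes tested. In 26 of them every mutant heart lay below every control heart, as did 25.4% of all genes, and in the other 6 (Cd68, Trem2, Cx3cr1, Ccr2, Itgam and H2-Eb1) the groups overlapped.

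These calls are relative to the bulk of genes. Scaled by library totals alone, 13 of the 32 were called lower and 0 higher, beside 8.11% of all genes lower and 50.3% higher, and the median of the 32 was -0.35. The 13 were Csf1r, Adgre1, Tyrobp, Fcer1g, Cd53, C1qa, C1qb, C1qc, Mrc1, Cd163, F13a1, Lyz2 and Cd74. Of these, 11 (all but Adgre1 and Cd53) were called lower under each of the 14 alternatives run.

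**Figure D1:**
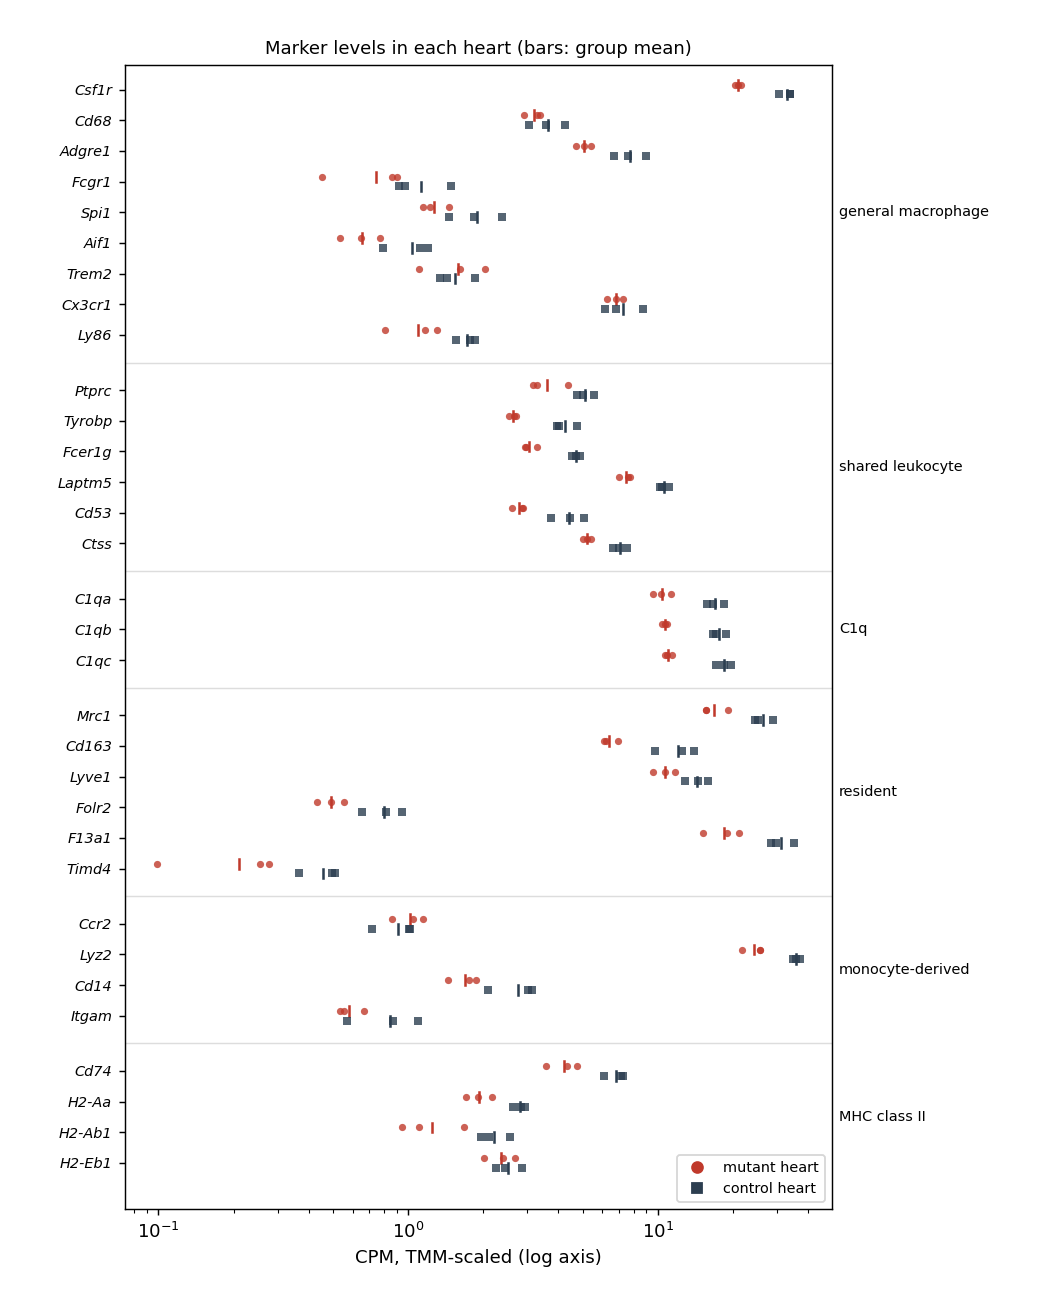
CPM of each of the 32 markers (log axis) in the 3 mutant hearts (red circles) and the 3 control hearts (dark squares), with a bar at each group mean and the genes grouped by role. Mutant hearts lie below control hearts without overlap for 26 genes, while Cd68, Trem2, Cx3cr1, Ccr2, Itgam and H2-Eb1 overlap.

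**Figure D2:**
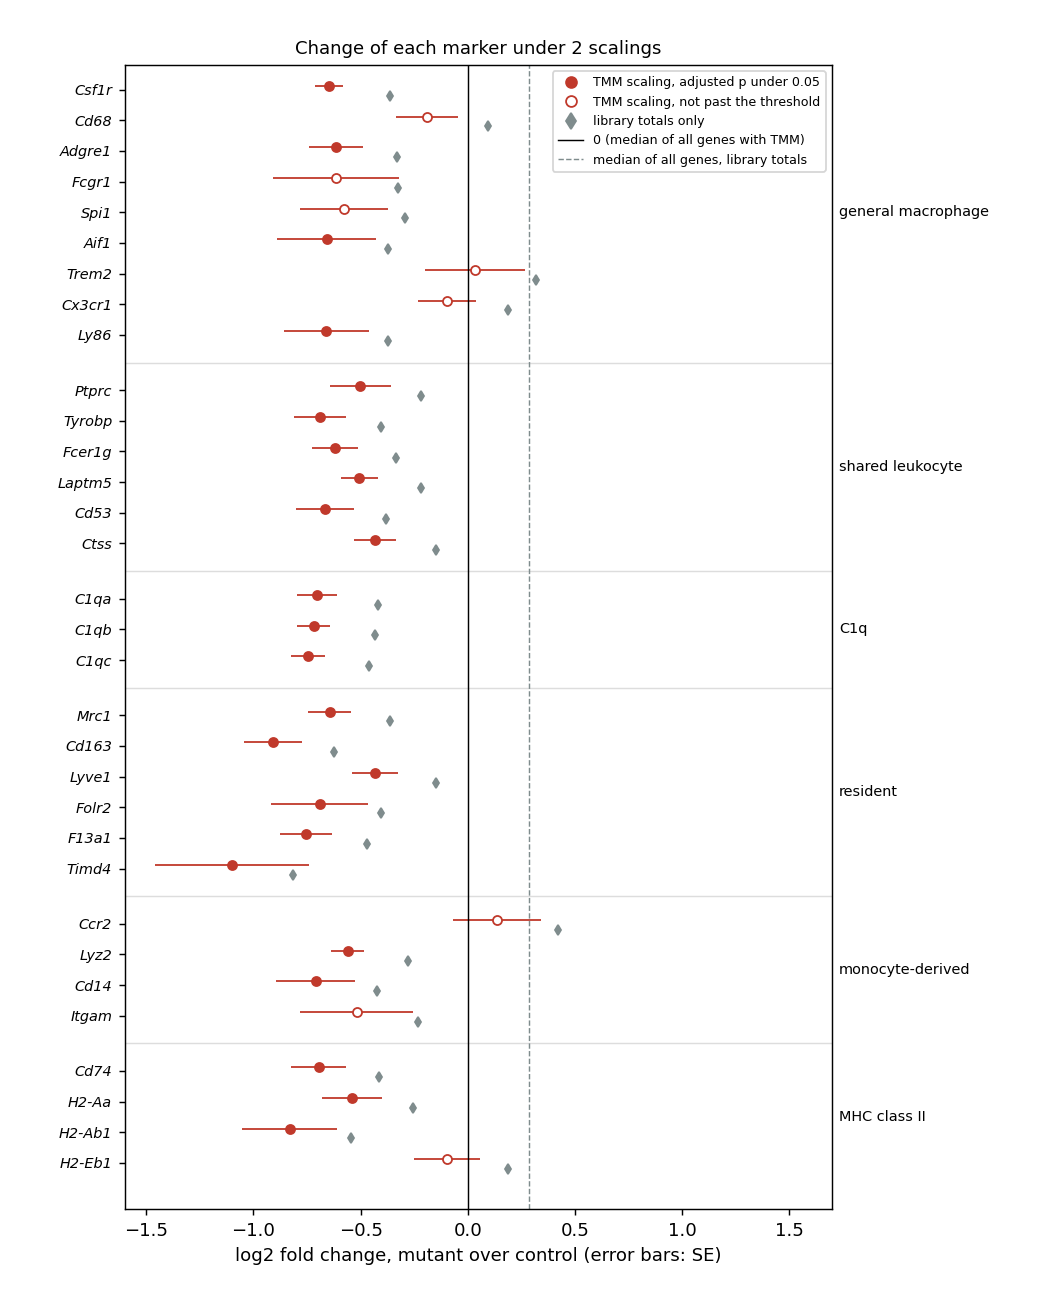
Log2 fold change of each marker, mutant over control, with TMM scaling (red circles, error bars SE, filled where the adjusted p is under 0.05) and with library totals alone (grey diamonds). The vertical lines at 0 and 0.28 mark the medians of all genes under the 2 scalings, and 24 filled circles lie left of 0.

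Levels between genes can be compared only per length. As CPM per kb of exon, Lyz2 stood highest with 18.4 in mutant hearts, against 27.1 in control hearts (group means). C1qa followed with 9.95 in mutant hearts, against 16.2 in control hearts, C1qb with 9.72 in mutant hearts, against 16 in control hearts and C1qc with 5.64 in mutant hearts, against 9.47 in control hearts. F13a1 had 4.67 in mutant hearts, against 7.88 in control hearts, and Csf1r had 4.26 in mutant hearts, against 6.67 in control hearts. The lowest of the 32 in control hearts was Ccr2, with 0.15 in mutant hearts, against 0.134 in control hearts, followed by Itgam. In mutant hearts the lowest was Timd4, with 0.0962 in mutant hearts, against 0.209 in control hearts.

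Among the 9 general macrophage genes, 4 were lower in mutant hearts (Csf1r, Adgre1, Aif1 and Ly86), 0 were higher and 5 did not pass. Their median log2 fold change was -0.61. Csf1r (chromosome 18, 61100598 to 61132149, plus strand, mm10) encodes the receptor for CSF1 and IL-34 that macrophages need to survive. It had 20.3, 21.5 and 20.9 CPM in mutant hearts, against 33.8, 33.9 and 30.6 CPM in control hearts (log2 fold change -0.65 ± 0.07 (SE), adjusted p = 6.97e-05). No other general macrophage gene was as abundant in CPM, and its hearts lay closely together within each group. Exons of Csf1r share 15.1% of their bases with Hmgxb3 on the other strand, and this kit does not keep the strand. Hmgxb3 itself differed by 0.10 on the log2 scale (adjusted p = 0.247).

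Adgre1, which encodes the macrophage surface protein F4/80, had 5.05, 4.7 and 5.41 CPM in mutant hearts, against 8.98, 7.62 and 6.69 CPM in control hearts (log2 fold change -0.61 ± 0.12 (SE), adjusted p = 0.00379). Ly86, whose product MD-1 pairs with the receptor RP105, had 1.16, 0.807 and 1.31 CPM in mutant hearts, against 1.56, 1.85 and 1.77 CPM in control hearts (log2 fold change -0.66 ± 0.20 (SE), adjusted p = 0.0257). Aif1, known as IBA1, had 0.533, 0.649 and 0.773 CPM in mutant hearts, against 1.2, 1.12 and 0.793 CPM in control hearts (log2 fold change -0.66 ± 0.23 (SE), adjusted p = 0.04999). All mutant hearts were below all control hearts for these 3 genes, but for Aif1 mutant heart 3 and control heart 3 were close. The call for Aif1 was lost with DESeq2 (adjusted p = 0.107), with RLE size factors (0.0511), without a filter (0.0534), and without mutant heart 1 (0.130), mutant heart 2 (0.118), control heart 1 (0.131) or control heart 2 (0.152). Ly86 lost its call without mutant heart 2 (adjusted p = 0.0855), control heart 2 (0.0927) or control heart 3 (0.0552).

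The other 5 general macrophage genes fell into 2 kinds. Spi1, which encodes the macrophage transcription factor PU.1, had 1.14, 1.22 and 1.45 CPM in mutant hearts, against 1.84, 2.38 and 1.46 CPM in control hearts (log2 fold change -0.58 ± 0.21 (SE), adjusted p = 0.0518), and without control heart 3 its adjusted p was 0.0166. Fcgr1, the high-affinity receptor for IgG, had 0.454, 0.905 and 0.865 CPM in mutant hearts, against 0.969, 1.49 and 0.915 CPM in control hearts (log2 fold change -0.61 ± 0.29 (SE), adjusted p = 0.131). In both, mutant hearts were below control hearts by narrow gaps that the test did not pass. The remaining 3 overlapped between the groups.
Cx3cr1, the receptor for fractalkine, had 6.27, 6.77 and 7.27 CPM in mutant hearts, against 6.81, 8.73 and 6.12 CPM in control hearts (log2 fold change -0.10 ± 0.14 (SE), adjusted p = 0.62). Cd68, a glycoprotein of lysosomes and endosomes, had 2.9, 3.29 and 3.37 CPM in mutant hearts, against 3.04, 4.24 and 3.58 CPM in control hearts (log2 fold change -0.19 ± 0.14 (SE), adjusted p = 0.332). Trem2, a receptor for lipids that signals through the adaptor of Tyrobp, had 1.11, 2.03 and 1.62 CPM in mutant hearts, against 1.43, 1.85 and 1.34 CPM in control hearts (log2 fold change 0.03 ± 0.23 (SE), adjusted p = 0.927). With library totals the estimates of Cd68 and Cx3cr1 lay above 0, at 0.09 and 0.19, and neither was called.

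All 6 genes shared with other leukocytes were lower, with a median log2 fold change of -0.56 and no overlap between groups. Tyrobp, the adaptor DAP12 of TREM2 and other receptors, had 2.53, 2.66 and 2.71 CPM in mutant hearts, against 3.95, 4.74 and 4.01 CPM in control hearts (log2 fold change -0.69 ± 0.12 (SE), adjusted p = 0.0017). Fcer1g, the signalling chain of Fc receptors, had 3.28, 2.97 and 2.93 CPM in mutant hearts, against 4.87, 4.54 and 4.7 CPM in control hearts (log2 fold change -0.62 ± 0.11 (SE), adjusted p = 0.00161). Laptm5, a lysosomal membrane protein of blood-derived cells, had 7.0, 7.6 and 7.75 CPM in mutant hearts, against 10.2, 11.1 and 10.4 CPM in control hearts (log2 fold change -0.51 ± 0.09 (SE), adjusted p = 0.00138). These hearts were tightly grouped, with differences several times their SE.
Cd53, a tetraspanin of leukocytes, had 2.86, 2.87 and 2.6 CPM in mutant hearts, against 5.08, 4.44 and 3.74 CPM in control hearts (log2 fold change -0.67 ± 0.14 (SE), adjusted p = 0.00411). Ctss, the protease that trims the invariant chain of MHC class II, had 5.21, 5.39 and 5.03 CPM in mutant hearts, against 7.55, 6.6 and 6.98 CPM in control hearts (log2 fold change -0.43 ± 0.10 (SE), adjusted p = 0.00639). Ptprc, the leukocyte antigen CD45, had 4.38, 3.29 and 3.17 CPM in mutant hearts, against 5.56, 5.02 and 4.76 CPM in control hearts (log2 fold change -0.50 ± 0.14 (SE), adjusted p = 0.0217). For Ptprc, mutant heart 1 lay apart from the other mutant hearts and near control heart 3. Its call was lost without mutant heart 2 (adjusted p = 0.0824), mutant heart 3 (0.0714), control heart 1 (0.0669) or control heart 2 (0.0580). With library totals Tyrobp, Fcer1g and Cd53 remained called, and Laptm5, Ctss and Ptprc did not.

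The 3 chains of C1q were all lower, by similar amounts. C1q is the complement protein that recognises immune complexes and dying cells, and macrophages are its main source. The genes lie side by side on chromosome 4, 136880129 to 136898803, minus strand, within 18.7 kb. C1qa had 10.3, 9.6 and 11.3 CPM in mutant hearts, against 18.4, 16.7 and 15.8 CPM in control hearts (log2 fold change -0.70 ± 0.09 (SE), adjusted p = 3.03e-04). C1qb had 10.7, 10.9 and 10.4 CPM in mutant hearts, against 17.1, 18.8 and 16.6 CPM in control hearts (log2 fold change -0.72 ± 0.08 (SE), adjusted p = 9.44e-05). C1qc had 10.9, 10.6 and 11.4 CPM in mutant hearts, against 19.7, 18.4 and 17.1 CPM in control hearts (log2 fold change -0.75 ± 0.08 (SE), adjusted p = 8.35e-05). In each, every mutant heart lay below every control heart, and each gene was called under all 14 alternatives. The count of C1qa over that of C1qb in the same library was 0.961, 0.884 and 1.09 in mutant hearts, against 1.08, 0.889 and 0.952 in control hearts, which overlapped.

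All 6 resident macrophage markers were lower, with a median log2 fold change of -0.72 and no overlap. F13a1, the A chain of coagulation factor XIII, had 21.2, 18.9 and 15.2 CPM in mutant hearts, against 35, 29.8 and 28.5 CPM in control hearts (log2 fold change -0.75 ± 0.12 (SE), adjusted p = 0.0011). Mrc1, the mannose receptor CD206, had 19.1, 15.6 and 15.6 CPM in mutant hearts, against 28.9, 24.6 and 25.3 CPM in control hearts (log2 fold change -0.64 ± 0.10 (SE), adjusted p = 8.30e-04). Cd163, the scavenger receptor for haemoglobin bound to haptoglobin, had 6.95, 6.06 and 6.19 CPM in mutant hearts, against 12.4, 9.71 and 13.9 CPM in control hearts (log2 fold change -0.91 ± 0.13 (SE), adjusted p = 6.14e-04). Cd163 was thus 1.88-fold lower in mutant hearts, the largest fitted change among the 32 except that of Timd4.
Lyve1, a hyaluronan receptor also present on lymphatic endothelium, had 10.7, 9.58 and 11.7 CPM in mutant hearts, against 14.5, 12.8 and 15.9 CPM in control hearts (log2 fold change -0.43 ± 0.11 (SE), adjusted p = 0.0106). It had the smallest change of the 6, and without mutant heart 2 it was not called (adjusted p = 0.0525). Folr2, a folate receptor of resident macrophages, had 0.493, 0.433 and 0.552 CPM in mutant hearts, against 0.944, 0.817 and 0.651 CPM in control hearts (log2 fold change -0.69 ± 0.23 (SE), adjusted p = 0.0369). Its exons share 63.1% of their bases with Gm10602 on the other strand, a gene with no entry in the count tables.

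Timd4, a receptor for phosphatidylserine on resident macrophages, was the rarest of them. Its counts were 5, 13 and 15 in mutant hearts, against 20, 28 and 18 in control hearts (log2 fold change -1.10 ± 0.36 (SE), adjusted p = 0.037). At these counts the estimate is imprecise, and mutant heart 1 was below the rest. Timd4 lost its call with DESeq2 (adjusted p = 0.0877), and without mutant heart 1 (0.0843), mutant heart 2 (0.0625), control heart 1 (0.0912) or control heart 2 (0.121). Folr2 lost its call with DESeq2 (adjusted p = 0.125), and without mutant heart 1 (0.0757), mutant heart 2 (0.121), mutant heart 3 (0.0557), control heart 1 (0.105) or control heart 2 (0.104). With library totals the resident markers called were Mrc1, Cd163 and F13a1.

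The 4 genes listed as markers of monocyte-derived cells did not move as one. Which macrophages or other cells their RNA came from was not tested. Lyz2 (chromosome 10, 117277331 to 117282321, minus strand), which encodes the lysozyme of myeloid cells, had 25.6, 25.8 and 21.7 CPM in mutant hearts, against 35.9, 37 and 34.8 CPM in control hearts (log2 fold change -0.56 ± 0.08 (SE), adjusted p = 4.24e-04). Cd14, a co-receptor for bacterial lipopolysaccharide, had 1.44, 1.75 and 1.88 CPM in mutant hearts, against 2.09, 3.12 and 3.03 CPM in control hearts (log2 fold change -0.71 ± 0.18 (SE), adjusted p = 0.0136), and was not called without control heart 2 (adjusted p = 0.0638). In both, mutant hearts were below control hearts without overlap. The near-identical copy of Lyz2, Lyz1, averaged 0.0131 CPM in mutant hearts and 0.0688 CPM in control hearts.
Ccr2, the receptor by which monocytes leave the marrow and enter tissue, had 1.14, 1.04 and 0.865 CPM in mutant hearts, against 0.714, 1.01 and 1.02 CPM in control hearts (log2 fold change 0.14 ± 0.21 (SE), adjusted p = 0.641). Mutant and control hearts were interleaved. Itgam, the integrin chain CD11b, had 0.553, 0.531 and 0.663 CPM in mutant hearts, against 1.1, 0.87 and 0.569 CPM in control hearts (log2 fold change -0.52 ± 0.26 (SE), adjusted p = 0.153), and control heart 3 fell among the mutant hearts. Without control heart 3 the adjusted p of Itgam was 0.0392. In GENCODE M21, exons of Itgam share 68.7% of their bases with Gm49368 on the same strand. Gm49368 has no entry in the count tables, and whether the overlap touched the counts of Itgam is uncertain.

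Of the 4 MHC class II genes, 3 were lower and 1 did not pass. Cd74, the invariant chain, had 4.74, 3.58 and 4.31 CPM in mutant hearts, against 6.1, 7.22 and 7.1 CPM in control hearts (log2 fold change -0.70 ± 0.13 (SE), adjusted p = 0.00218). H2-Aa, the alpha chain of I-A, had 2.17, 1.71 and 1.9 CPM in mutant hearts, against 2.63, 2.93 and 2.83 CPM in control hearts (log2 fold change -0.54 ± 0.14 (SE), adjusted p = 0.0127). H2-Ab1, its beta chain, had 0.947, 1.1 and 1.68 CPM in mutant hearts, against 1.96, 2.11 and 2.56 CPM in control hearts (log2 fold change -0.83 ± 0.22 (SE), adjusted p = 0.015). Mutant hearts were below control hearts without overlap for all 3.
H2-Eb1, the beta chain of I-E, had 2.41, 2.01 and 2.67 CPM in mutant hearts, against 2.24, 2.45 and 2.87 CPM in control hearts (log2 fold change -0.10 ± 0.16 (SE), adjusted p = 0.666), with the groups interleaved. H2-Ab1, H2-Aa and H2-Eb1 lie together on chromosome 17, 34257689 to 34316674, within 59.0 kb, and the promoters of H2-Aa and H2-Eb1 printed above both hold the Y box. The count of H2-Eb1 over that of H2-Aa in the same library was 1.11, 1.17 and 1.41 in mutant hearts, against 0.854, 0.836 and 1.01 in control hearts, with no overlap and H2-Aa itself lower. The pups were of mixed background, and whether their alleles of these genes differed was not tested. H2-Aa was not called without mutant heart 2 (adjusted p = 0.0536) or control heart 2 (0.0515), nor H2-Ab1 without mutant heart 2 (0.0626). Only Cd74 was called with library totals.

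Ratios of counts within a library need no scaling between libraries. Set over Csf1r, 26 of the other 31 genes overlapped between the groups, 5 were higher in mutant hearts without overlap and 0 were lower. Of all other genes tested, 79.3% were higher over Csf1r without overlap and 3.21% lower. The 5 were Cd68, Cx3cr1, Laptm5, Ctss and Ccr2. Since Csf1r itself was lower, such a ratio shows unequal change only. An exact two-sided permutation test of 3 hearts against 3 cannot give a p below 0.1, so none is given.
The ratio of Ccr2 to Csf1r was 0.0563, 0.0484 and 0.0414 in mutant hearts, against 0.0211, 0.0298 and 0.0332 in control hearts, 1.74-fold higher by the means. The ratio of Cx3cr1 to Csf1r was 0.308, 0.314 and 0.348 in mutant hearts, against 0.201, 0.258 and 0.20 in control hearts. That of Cd68 to Csf1r was 0.143, 0.153 and 0.161 in mutant hearts, against 0.0897, 0.125 and 0.117 in control hearts. Set over Lyz2, which was also lower, Ccr2 had 0.0447, 0.0405 and 0.0399 in mutant hearts, against 0.0199, 0.0273 and 0.0292 in control hearts. The summed resident markers over Csf1r were 2.88, 2.36 and 2.37 in mutant hearts, against 2.73, 2.31 and 2.76 in control hearts, which overlapped.

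**Figure D3:**
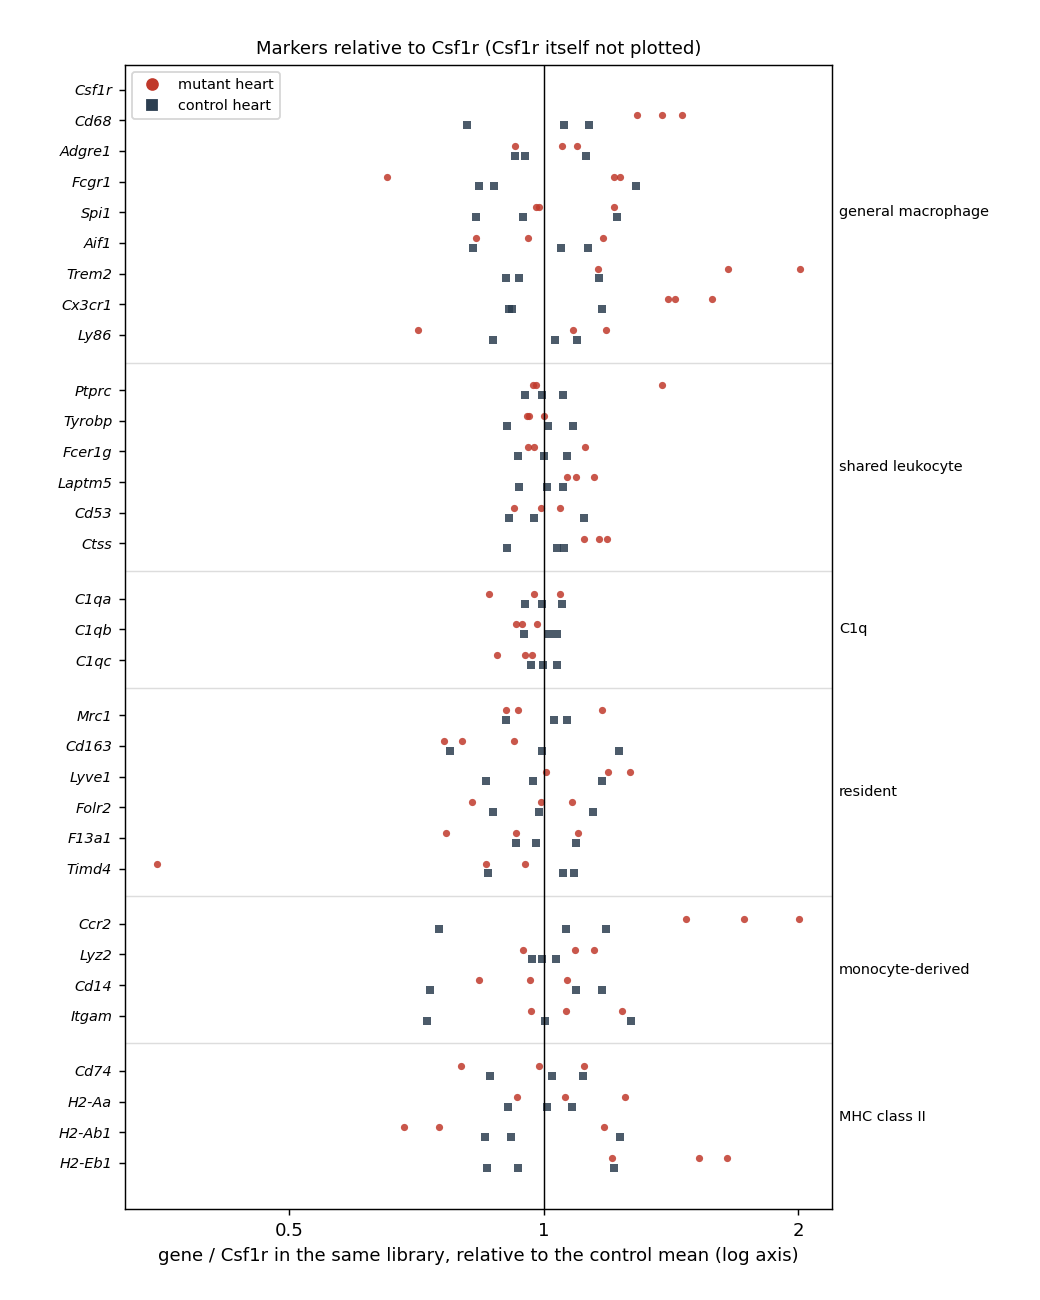
Count of each marker over that of Csf1r in the same library, divided by the control mean of that ratio (log axis), in the 3 mutant hearts (red circles) and the 3 control hearts (dark squares). Cd68, Cx3cr1, Laptm5, Ctss and Ccr2 lie higher in all 3 mutant hearts, as do 79.3% of all genes set over Csf1r, and the other 26 genes overlap.

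The lists of related genes had medians nearer 0 than the 32. Counts called in these and the later cell type lists stand beside 19.5% of all genes called lower and 18.1% higher. Those of the further monocyte genes were below both shares. Among 14 further tested genes of resident macrophages, 5 were lower and 2 higher, with a median log2 fold change of -0.27. Cbr2, a carbonyl reductase, had 3.69, 3.5 and 3.55 CPM in mutant hearts, against 6.43, 6.39 and 6.3 CPM in control hearts (log2 fold change -0.83 ± 0.10 (SE), adjusted p = 1.24e-04). Pf4, the chemokine CXCL4, had a log2 change of -0.80, adjusted p = 2.98e-04. Gas6, the ligand of the TAM receptors that bridges dying cells to phagocytes, was higher, with 255, 267 and 276 CPM in mutant hearts, against 137, 149 and 152 CPM in control hearts (log2 fold change 0.87 ± 0.06 (SE), adjusted p = 8.77e-06), and is also made by other heart cells.
Among 14 further tested genes of monocytes, 2 were lower (Ly6c1, -0.48, adjusted p = 0.00268, and Ifitm3, -0.34, adjusted p = 0.00592) and 1 higher. The higher one was Vcan, a matrix proteoglycan also made by stromal cells, with 71.9, 73 and 77.9 CPM in mutant hearts, against 30.8, 26.4 and 18.1 CPM in control hearts (log2 fold change 1.57 ± 0.16 (SE), adjusted p = 5.45e-05). Ly6c2 and Chil3, genes of inflammatory monocytes named after their values were seen, had 3 to 8 and 0 to 3 counts per library and were not tested. With library totals the medians of both lists lay above 0, at 0.01 and 0.14, and Ly6c1 and Ifitm3 were not called. Ly6c1 and Ly6c2 are near-identical, as are several MHC class I genes, so reads may be split between copies. Per kb of exon, Ly6c1 averaged 72.4 CPM and Ifitm3 50.8 CPM in control hearts, against 0.134 CPM for Ccr2. Which cells the RNA of Ly6c1 and Ifitm3 came from was not tested, so their fall is not a measure of monocytes.

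Of the 9 tested growth factor genes of the CSF1 and TGF-beta families and their receptors, 2 were lower and 3 higher. Csf1, the main ligand of the CSF1 receptor, had 24, 27.7 and 30.5 CPM in mutant hearts, against 40.2, 40.7 and 31.8 CPM in control hearts (log2 fold change -0.46 ± 0.11 (SE), adjusted p = 0.0112), and was not called without control heart 2 (adjusted p = 0.0531) or with library totals (0.251). Il34, the other ligand, named after its values were seen, had a log2 change of -0.34, adjusted p = 0.0519. Tgfb2, a TGF-beta ligand, was higher (0.72, adjusted p = 4.43e-04), as was Csf2ra, a chain of the receptor for GM-CSF (0.77, adjusted p = 0.00588). So the receptor Csf1r and its ligand Csf1 were both called lower with TMM scaling. With library totals only Csf1r of the 2 was called, and the estimate for Csf1 was -0.17.
Of 14 tested chemokines and their receptors, 5 were lower and 1 higher. Cxcl12, which attracts cells through CXCR4, had 151, 162 and 131 CPM in mutant hearts, against 214, 231 and 211 CPM in control hearts (log2 fold change -0.56 ± 0.08 (SE), adjusted p = 6.18e-04). Ccl9 was lower (-0.75, adjusted p = 0.00161), and so was Ackr3, a scavenging receptor for CXCL12 (-0.45, adjusted p = 0.00596). Ccl2, the ligand of CCR2, had a log2 change of -0.38, adjusted p = 0.249, and Cx3cl1, that of CX3CR1, one of -0.19, adjusted p = 0.35. Both ligands were named after their values were seen. The median of the chemokine list was -0.35 (-0.06 with library totals).

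Of 16 further class II pathway genes tested, 3 were lower and 1 higher, near or below the 19.5% and 18.1% of all genes, with a median of -0.12 (0.16 with library totals). The 3 were the endosomal proteases Ctsb (-0.63, adjusted p = 3.01e-05) and Ctsl (-0.45, adjusted p = 2.78e-04), and Cd86, a co-stimulatory ligand for T cells, with 2.13, 1.71 and 1.68 CPM in mutant hearts, against 3.6, 3.76 and 3.09 CPM in control hearts (log2 fold change -0.92 ± 0.15 (SE), adjusted p = 9.64e-04). Ciita, the coactivator named above and chosen after its values were seen, had 0.987, 0.984 and 0.902 CPM in mutant hearts, against 0.918, 1.12 and 0.712 CPM in control hearts (log2 fold change 0.06 ± 0.21 (SE), adjusted p = 0.859). Its groups overlapped, as did those of H2-Eb1, while those of Cd74, H2-Aa and H2-Ab1 did not. Whether Ciita had a part in these changes was not tested.
Of 23 MHC class I genes tested, 7 were lower and 0 higher, led by the class I heavy chain H2-D1 (-0.43, adjusted p = 0.00101), H2-T23 (-0.46, adjusted p = 0.00248) and H2-K1 (-0.41, adjusted p = 0.0035). None of these 3 was called with library totals, where the class I list had 7 higher and 1 lower. Of 21 interferon genes, 6 were lower, among them the interferon gamma receptor chain Ifngr2 (-0.58, adjusted p = 2.91e-04) and the GTPase Gbp2 (-0.42, adjusted p = 0.00186). Ifit2, an interferon-induced gene, was higher (0.85, adjusted p = 9.89e-05). The median of the interferon list was -0.40 (-0.12 with library totals). At an unadjusted p under 0.05 in edgeR, 13 of its genes were lower and 1 higher, beside 23.9% of all genes lower and 22.9% higher.

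Of 20 tested partners of the adaptors DAP12 and Fc receptor gamma, 8 were lower and 3 higher. Fcgr3, an Fc receptor that needs the gamma chain, had 4.26, 3.96 and 3.81 CPM in mutant hearts, against 6.58, 6.85 and 7.2 CPM in control hearts (log2 fold change -0.78 ± 0.10 (SE), adjusted p = 2.41e-04). Clec4a1, a myeloid lectin, was lower (-0.67, adjusted p = 0.0036), and Plcg2, a phospholipase downstream of these receptors, was higher (0.95, adjusted p = 4.46e-05). Of 16 other complement genes, 3 were lower and 0 higher: the inhibitor Cd59a (-0.88, adjusted p = 2.32e-05), the protease C1s1 (-0.41, adjusted p = 0.00269) and the anaphylatoxin receptor C5ar1 (-0.62, adjusted p = 0.00751). Those counts were near or below the 19.5% lower and 18.1% higher of all genes. The median of that list was -0.12 (0.16 with library totals), against -0.72 for the C1q chains (-0.43 with library totals).
Of 25 lysosome and oxidase genes, 11 were lower and 5 higher. Ctsc, which activates serine proteases of granules, was lower (-0.75, adjusted p = 9.77e-05), and Cyba, a subunit of the phagocyte oxidase, was higher (0.69, adjusted p = 1.09e-04). Of 23 genes of phagocytosis, 3 were lower and 5 higher, below and near the 19.5% and 18.1% of all genes. Lpl, lipoprotein lipase, was lower (-0.63, adjusted p = 2.40e-04), and Tyro3, a TAM receptor that binds GAS6, was higher (0.56, adjusted p = 0.0020). Heart muscle and stromal cells express many of these genes too. The medians of the adaptor, lysosome and phagocytosis lists were -0.28, -0.28 and -0.07, and 0.00, 0.01 and 0.21 with library totals.

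Markers of other cell types were counted to see what moved beside the macrophage genes. Of 14 T and NK cell markers, 3 had enough counts to be tested and 0 were called either way by edgeR, where 1 was lower at an unadjusted p under 0.05 and DESeq2 called 0. Of these, Cd4, the helper T cell co-receptor, had a log2 change of -0.65, adjusted p = 0.0686, and Il7r, the interleukin 7 receptor, one of -0.26, adjusted p = 0.555. Their summed level was 1.34 to 1.82 CPM in mutant hearts, against 2.18 to 2.73 CPM in control hearts. The median log2 fold change of the 3 tested T and NK cell markers was -0.57, near the -0.63 of the 32. At such low counts, the lack of calls does not show that these markers were unchanged. Of 12 neutrophil markers, 3 were tested and 0 called by edgeR (0 lower at an unadjusted p under 0.05, 0 by DESeq2), with a sum of 1.12 to 1.8 CPM in mutant hearts, against 1.2 to 3.09 CPM in control hearts. S100a9, a calcium-binding protein of neutrophils, had 0.592, 0.138 and 0.258 CPM in mutant hearts, against 0.281, 0.763 and 0.813 CPM in control hearts (log2 fold change -0.95 ± 0.50 (SE), adjusted p = 0.165). The 3 tested neutrophil markers had a median of -0.63, also with low counts. Of 7 tested B cell markers, 1 was lower, the antibody heavy chain Ighm (-0.54, adjusted p = 0.00676), and the sum was 7.9 to 10.2 CPM in mutant hearts, against 10.8 to 12.1 CPM in control hearts. The count tables held 9 of the 10 B cell markers and 11 of the 12 neutrophil markers, and the T and NK sums did not overlap between groups. Of 6 tested dendritic cell markers, Clec9a was lower (-0.38, adjusted p = 0.0305) and Fscn1, also made by other cells, higher (0.44, adjusted p = 0.00474). The dendritic sum was 95.8 to 109 CPM in mutant hearts, against 87.1 to 96.8 CPM in control hearts. Of this sum, Fscn1 alone made up 51.7, 63 and 57.9 CPM in mutant hearts, against 40.7, 47 and 39.2 CPM in control hearts. The sum is therefore not a measure of dendritic cells. Clec9a was not called on leaving out any heart but mutant heart 1 (adjusted p 0.0602 to 0.0930).

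Mast cell markers had the lowest median of the cell type lists. Of 6 tested, 5 were lower and 1 higher, with a median log2 fold change of -1.78. Tpsb2, a tryptase, had 0.296, 0.354 and 0.184 CPM in mutant hearts, against 0.944, 1.3 and 0.874 CPM in control hearts (log2 fold change -1.91 ± 0.28 (SE), adjusted p = 6.31e-04). Cma1, a chymase, had 0.296, 0.275 and 0.203 CPM in mutant hearts, against 0.74, 1.42 and 0.915 CPM in control hearts (log2 fold change -2.01 ± 0.31 (SE), adjusted p = 8.17e-04). Kit, also expressed by other cells and named after its values were seen, was higher (0.54, adjusted p = 0.00671). The summed mast list, which Kit and Gata2 dominate, was 33.4 to 40.3 CPM in mutant hearts, against 37.4 to 40.2 CPM in control hearts.

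Of the cells that make up most of the heart, cardiomyocyte markers had 6 of 10 lower and 0 higher, led by Tnni3 (-1.27, adjusted p = 3.59e-06) and Ckm (-0.62, adjusted p = 2.01e-04). Their sum was 38447 to 40055 CPM in mutant hearts, against 43333 to 48012 CPM in control hearts. Endothelial markers had 6 of 13 lower, such as Flt1 (-0.44, adjusted p = 9.31e-04), and 1 higher, Prox1 (0.46, adjusted p = 7.07e-04), with a sum of 1753 to 1924 CPM in mutant hearts, against 2027 to 2197 CPM in control hearts. Fibroblast markers had 0 of 10 lower and 4 higher, led by Gsn (0.74, adjusted p = 1.48e-04) and Tcf21 (0.54, adjusted p = 5.36e-04), with a sum of 4074 to 4300 CPM in mutant hearts, against 3321 to 3592 CPM in control hearts. Smooth muscle and pericyte markers had 3 of 9 lower and 2 higher, Cspg4 (1.13, adjusted p = 2.25e-06) and Cnn1 (1.81, adjusted p = 0.00123), with a sum of 2211 to 2310 CPM in mutant hearts, against 2407 to 2631 CPM in control hearts. With library totals the medians of the endothelial, smooth muscle and cardiomyocyte lists lay above 0, at 0.05, 0.05 and 0.03. Prox1 moved against the other called endothelial markers. Which cells the RNA of Prox1, Gsn and the other markers came from was not tested.
All 8 cell division genes were higher, with a median of 1.89 and Ccna2, a cyclin, at 7.81, 9.39 and 6.85 CPM in mutant hearts, against 2.3, 1.97 and 1.93 CPM in control hearts. Haemoglobin genes and other red cell markers had 0 of 6 called by edgeR (0 lower at an unadjusted p under 0.05, 0 by DESeq2), and Hbb-bs had a log2 change of -0.43, adjusted p = 0.311. The part of these lists in the macrophage result was not tested.

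The macrophage genes were also lower when set against markers of endothelium, fibroblasts, and smooth muscle and pericytes in the same library, with no scaling. The summed counts of the 32 over those of the endothelial markers were 0.11, 0.0967 and 0.0987 in mutant hearts, against 0.147, 0.131 and 0.127 in control hearts. Over the fibroblast markers they were 0.0475, 0.0433 and 0.0441 in mutant hearts, against 0.0828, 0.0844 and 0.0833 in control hearts. Over the smooth muscle and pericyte markers they were 0.0838, 0.0819 and 0.0839 in mutant hearts, against 0.113, 0.114 and 0.115 in control hearts. None of the 3 ratios overlapped between the groups, and by the means they were 0.755, 0.539 and 0.730 of those in control hearts. The fibroblast sum was itself higher in mutant hearts, and the endothelial and smooth muscle sums were lower, so each ratio shows unequal change only. The share of all genes that would separate over these markers was not counted.

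**Figure D4:**
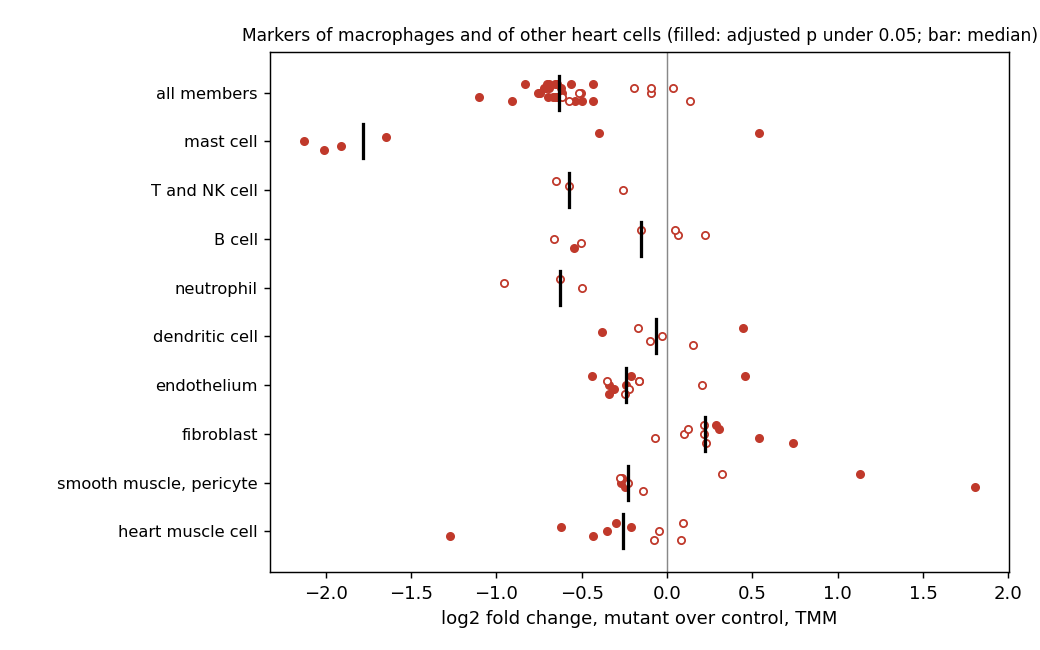
Log2 fold change, mutant over control with TMM scaling, of each tested marker of macrophages and antigen presentation and of 9 other cell types (filled where the adjusted p is under 0.05, bar at the median). The median of the 32 lies at -0.63, that of mast cell markers at -1.78 and that of fibroblast markers at 0.22.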

How the data were processed

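RNA was sequenced from 6 whole hearts, whose titles give group and replicate number. The deposited counts are whole numbers of reads per Ensembl gene. The submitters' processing notes name STAR 2.5.2b, cutadapt 1.9 and featureCounts 1.5.1 on mm10, without saying what each did. The RPKM values deposited by the authors are counts over gene length and library total, with no composition scaling. Per the labels' protocols, libraries came from TruSeq version 2, which does not mark strand, and the counting options are not stated in the labels.

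Identifiers were matched to GENCODE M21, which named 20081 of 20121. Exon overlaps are also from GENCODE M21, and the gene models that were counted can differ from it. For Csf1r the length behind the deposited RPKM was 4.91 kb, against 5774 exon bases in GENCODE M21. The test was edgeR 4.0.16 under R 4.3.3 (filterByExpr, TMM, quasi-likelihood F test, group as the only term, Benjamini-Hochberg over 14877 genes, adjusted p under 0.05). The SE is the log2 fold change over the square root of F. The 6 hearts come from separate pups, and depth was 43314706 to 62095277 counts. Counting, normalization, filter, RPKM and leave-one-out alternatives used DESeq2 1.42.0 and limma 3.58.1 as well, and the scripts were tested on simulated data.

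The 32 genes and all lists were chosen with earlier results of these data known, so lists are described by counts and medians with no list test. Named genes are the 32, and up to 3 called genes with the smallest adjusted p from each pathway list and up to 2 from each cell type list, or the 2 most abundant where none was called. Others are said to be chosen after their values were seen. Promoters are from RefSeq on GRCm38.p6, with 23 of the 32 genes matched.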

Additional observations from a re-analysis of the deposited data

How the results depend on the processing

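Under all 14 alternatives, 0 of the 32 markers were called higher. The number called lower was 21 with DESeq2, 23 with RLE size factors, 23 without a filter, 13 with library totals, 13 with limma on log2(RPKM + 1), 13 on log2(RPKM + 0.1) and 11 on log2(RPKM + 1) without a filter. Leaving out 1 heart gave 16 (without mutant heart 2) to 25 (without control heart 3). The last 4 settings, in the order library totals, RPKM + 1, RPKM + 0.1 and RPKM + 1 without a filter, hold no composition scaling, and the median of the 32 was -0.35, -0.19, -0.33 and -0.19. In that order, all genes called higher were 7479, 7349, 7391 and 6916, and lower 1207, 1215, 1221 and 1170. General macrophage genes called lower were 2, 1, 1 and 1, shared leukocyte genes 3, 3, 3 and 2, resident markers 3 in each, monocyte-derived markers 1 in each, and MHC class II genes 1 with library totals and 1 on the last. The cause was not tested beyond the missing composition scaling. Over the 6 leave-one-out fits, general macrophage genes called lower were 2 to 4, shared leukocyte genes 5 to 6, C1q chains 3, resident markers 3 to 6, monocyte-derived markers 1 to 3 and MHC class II genes 1 to 3. The median of the 32 was -0.68 to -0.58, and all genes called were 2039 to 2661 higher and 2234 to 2856 lower. None of the following estimates was called, and their sign changed: in the order above, Cd68 had 0.0946, 0.0780, 0.11 and 0.0780, Cx3cr1 0.19, 0.12, 0.19 and 0.12, H2-Eb1 0.19, 0.13, 0.18 and 0.13, and Il7r 0.0252, 0.0030, 0.0136 and 0.0030. Leaving out 1 heart gave Trem2 -0.18 to 0.23, Cx3cr1 -0.21 to 0.0676 and H2-Eb1 -0.20 to 0.01. Trem2 was -0.18, -0.0161 and -0.0619 without mutant heart 2, control heart 1 or control heart 3, Cx3cr1 0.0676 without control heart 2, and H2-Eb1 0.0074 and 0.0047 without mutant heart 2 or control heart 3.

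The groups share replicate numbers, but same-numbered hearts did not deviate together (correlations 0.155, -0.0502 and 0.0956), and not every heart correlated best with its own number. With a replicate block, 21 of the 32 were called lower, Aif1 (adjusted p = 0.0792), Folr2 (0.0563) and Timd4 (0.0570) losing their calls, and 3090 genes were higher and 3229 lower over the whole table. Depth limits Timd4, Itgam, Folr2 and Aif1 most, which have few counts per library.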
